A study of Mus musculus with 94 samples.

Results

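L1MA and L1MB elements are old LINE-1 (L1) copies of the mouse genome, and their RNA was described here in the cortex and hippocampus of wild-type and trisomic mice. The members were the elements of the L1 count table whose name before "_dup" starts with L1MA or L1MB, leaving out L1MA4_dup880. They were chosen by name only, and there were 34525 of them among the 430083 L1 elements of the table (8.03%). They belonged to 16 subfamilies, which are L1MA4, L1MA4A, L1MA5, L1MA5A, L1MA6, L1MA7, L1MA8, L1MA9 and L1MA10, and L1MB1, L1MB2, L1MB3, L1MB4, L1MB5, L1MB7 and L1MB8.

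L1 elements are retrotransposons that spread through an RNA copy, which their own reverse transcriptase turns into DNA at a new site. The L1MA and L1MB subfamilies were active in early mammalian ancestors, and their copies are mostly truncated and mutated, so that they cannot move any more. The young mouse L1Md subfamilies, in contrast, still hold copies that can retrotranspose. Many old copies lie in introns or in untranslated regions, and a read counted on one of them does not tell a transcript that starts in the copy from a longer transcript that runs through it. Lamivudine is a nucleoside analogue that inhibits reverse transcriptase, a step that comes after L1 transcription.

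The RNA came from male Ts65Dn (TS) mice and from their wild-type (WT) littermates. Ts65Dn mice carry an additional copy of segments of MMU16 and MMU17 and serve as a Down syndrome model. Mice received lamivudine at 3 mg/kg in the drinking water for 4 months (-t) or were non-treated (-nt). The study's methods give an age of 3 to 4 months for all mice. Whether this was the age before the 4 months of treatment or when the tissue was taken is not stated there. Cortex gave 48 libraries (WT-nt 9, TS-nt 9, WT-t 17, TS-t 13) and hippocampus 46 (WT-nt 8, TS-nt 8, WT-t 17, TS-t 13), and 46 mice gave both tissues. Mice are numbered here in the order of their labels. The trisomy in Ts65Dn is carried by a separate small chromosome that also holds genes with no counterpart on the human chromosome trisomic in Down syndrome, which limits the model. The study's methods also describe pooling samples in groups of 3 per condition before RNA quality was measured. They mention 3 parts taken from each cortex, but do not state what was pooled. In each group the cortex libraries are as many as the mice given there, each under its own animal label. A library was therefore taken as 1 mouse here. The labels of all non-treated mice begin with 20, as do those of 3 of the 17 WT-t and 8 of the 13 TS-t cortex libraries, and what the start of a label stands for is not given in the sources used here.

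The reads counted on L1 elements numbered 186545 to 1165192 per cortex library and 178454 to 403378 per hippocampus library. Levels are given as CPM (counts scaled to a total of 1000000) of these L1 counts, with library totals adjusted by TMM factors from the subfamily sums. The table holds no genes, so that the labelled tissue could not be compared with gene markers, and a difference in CPM is relative to the other L1 elements. In bulk tissue, fewer cells of a type and less RNA per cell cannot be told apart. Element lengths were not used here, so that levels of different copies and subfamilies are given as the counts they hold, not as RNA per base.

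A few libraries stood apart. The L1 totals of 4 libraries differed from the tissue's median total by over 3 median absolute deviations, namely cortex of mouse 24 (WT-nt), mouse 2 (TS-t) and mouse 27 (TS-nt) and hippocampus of mouse 27. In 8 cortex libraries (3 WT-t, 3 TS-t, 1 TS-nt and 1 WT-nt) a single L1 element held more than 5% of the L1 counts, and in the most extreme, mouse 1 of the WT-t group, it held 24.2% and only 203 members had a count. The hippocampus library of mouse 46 (TS-t) resembled cortex in elements that are higher in hippocampus, but not in elements that are higher in cortex. Over 17 L1 elements outside L1MA and L1MB with a level higher in hippocampus by at least 2 on the log2 scale, its mean was 4.59 on the log2(CPM + 5) scale, against 5.96 to 7.70 in the other 45 hippocampus libraries and a median of 4.18 in the other cortex libraries. Over 28 such elements higher in cortex its mean was 4.46, which lies within the 3.51 to 5.47 of the other hippocampus libraries. The other cortex libraries were at 4.55 to 7.22 in these elements. Where a call changed without these libraries, the value without them is given beside it.

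Together the L1MA and L1MB elements held 4.46% to 9.90% of the L1 counts of a cortex library, with a mean of 8.20% ± 1.07 (SD, n = 48). In hippocampus the share was 8.19% to 9.65%, with a mean of 8.98% ± 0.382 (SD, n = 46). The lowest cortex shares lay in the libraries dominated by 1 element, and without those 8 libraries the cortex mean was 8.60% ± 0.322 (SD, n = 40). By group, the cortex means were 8.04% in WT-nt, 8.07% in WT-t, 8.68% in TS-nt and 8.13% in TS-t, and the hippocampus means were 8.78%, 9.08%, 9.01% and 8.97% in the same order. The shares of the 4 groups overlapped in both tissues. This share was described without a test.

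Nearly all members were counted at least once. A count was present for 30955 copies (89.7%) in cortex and for 26499 copies (76.8%) in hippocampus, and 381 copies had no count in any of the 94 libraries, where a total of 0 allows up to 3 counts. Most copies nevertheless had no count in a given library. A cortex library had a count for a mean of 14.3% of the members and a hippocampus library for 11%. The counts were concentrated in few copies. In cortex 991 copies (2.87%) held 50% of the L1MA and L1MB counts, and in hippocampus 342 copies (0.991%) did. The 10 most abundant copies alone held 9.47% in cortex and 12.3% in hippocampus.

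L1MB7 was the most abundant subfamily in both tissues. Its 4261 copies held 17.6% of the member counts in cortex and 18.3% in hippocampus, and its level was 14755 ± 1389 CPM in cortex (SD, n = 48) and 16326 ± 1229 CPM in hippocampus (SD, n = 46). L1MB8 followed with 9255 ± 802 CPM in cortex and 9550 ± 452 CPM in hippocampus. L1MB2, L1MA4, L1MB3 and L1MA6 lay next, at 6440 to 7297 CPM in cortex and 6952 to 8298 CPM in hippocampus, and their ranges over libraries overlapped. L1MA10, with 374 copies, was the least abundant at 393 ± 100.2 CPM in cortex and 377 ± 83.2 CPM in hippocampus. The other subfamilies had means between 1575 CPM (L1MA5A) and 5631 CPM (L1MB5) in cortex. Counts per copy were highest in L1MB2, with 67.1 over all cortex libraries and 58.6 over all hippocampus libraries, and lowest in L1MA10, with 18.1 and 12.7.

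**Figure D1:**
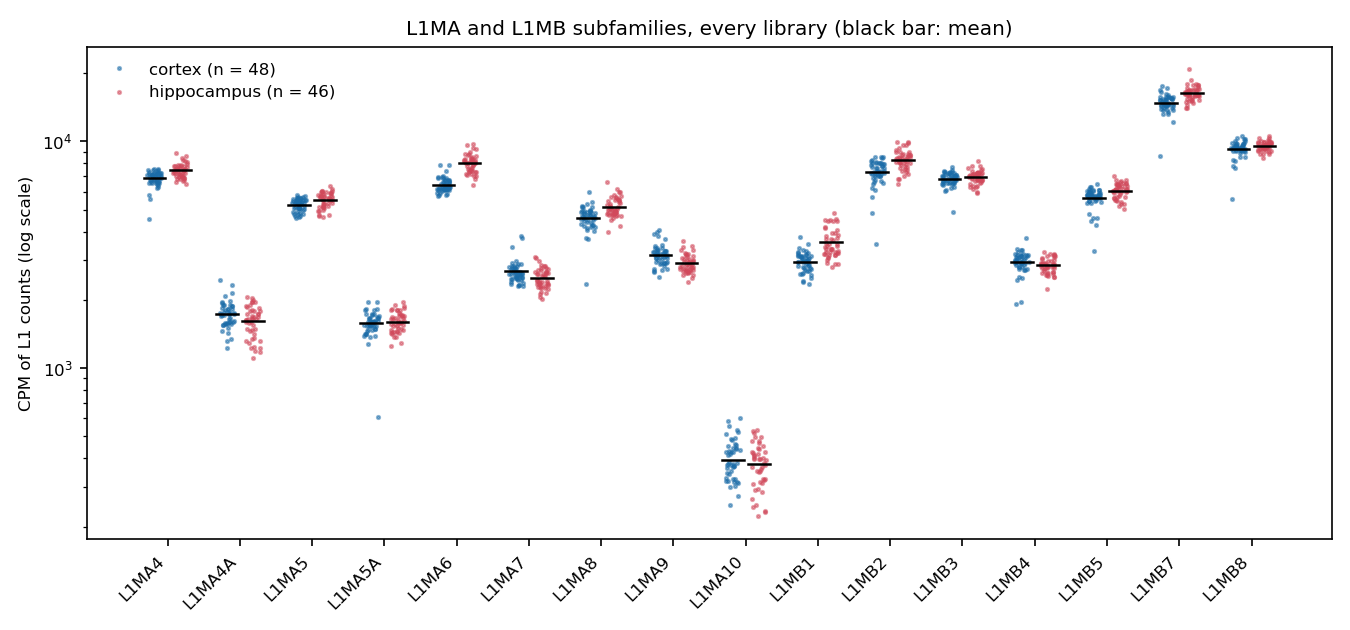
Level of each L1MA and L1MB subfamily in CPM of L1 counts (vertical axis, log scale), one point per library, with a black bar at the mean of the 48 cortex (blue) and 46 hippocampus (red) libraries. L1MB7 lies highest and L1MA10 lowest in both tissues, and the tissues overlap in every subfamily; 1 cortex library with no L1MA10 count is not drawn.

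The most abundant copy was L1MB2_dup36 in both tissues. Its level ranged from 397 to 1816 CPM in cortex, with a median of 1353, and from 973 to 2421 CPM in hippocampus, with a median of 1622. L1MB7_dup83 came second, with a mean of 1151 ± 432 CPM in cortex and 1409 ± 302 CPM in hippocampus. The ranges of both copies overlapped between the tissues and with those of the copies that followed. L1MB2_dup2749, L1MB2_dup35, L1MA5_dup779, L1MB7_dup82, L1MB5_dup3439, L1MB2_dup37 and L1MB1_dup1141 were also among the 10 most abundant in both tissues, with means from 534 to 964 CPM in cortex and from 783 to 1171 CPM in hippocampus. The remaining place was held in cortex by L1MB7_dup1393, at 541 ± 217 CPM. In hippocampus it was held by L1MA6_dup2741, which came right after L1MB2_dup36 and L1MB7_dup83 at 1183 ± 460 CPM and had a mean of only 97.8 ± 59.7 CPM in cortex.

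The comparison of the tissues asked which L1MA and L1MB subfamilies differ between cortex and hippocampus of the same mice. Of the 16 subfamilies 12 differed, 9 with a higher level in hippocampus and 3 with a higher level in cortex (edgeR quasi-likelihood test with mouse as a block, 46 mice, adjusted p-value below 0.1). Over all L1 subfamilies 67.4% of 132 were called, 34.1% higher in cortex and 33.3% higher in hippocampus, so that the share of subfamilies called was near the background. Most differences were small, and log2 fold changes of cortex over hippocampus lay between −0.31 and 0.12.

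L1MA6 had the largest difference. In cortex its level was between 5754 and 7889 CPM, with a median of 6295, and in hippocampus between 6408 and 9767 CPM, with a median of 8018. The ranges overlapped, but the level was higher in hippocampus in 45 of 46 mice, by 1.24-fold (log2 fold change −0.31, SE 0.024, adjusted p = 7.12e-16). L1MB1 was between 2340 and 3792 CPM in cortex, with a median of 2955, and between 2802 and 4831 CPM in hippocampus, with a median of 3431. It was higher in hippocampus in 44 of 46 mice, by 1.21-fold (log2 fold change −0.28, SE 0.031, adjusted p = 1.13e-10).

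The other subfamilies that were higher in hippocampus were L1MB2 (log2 fold change −0.20, 37 of 46 mice), L1MA8 (−0.17, 34 mice), L1MB7 (−0.15, 41 mice), L1MA4 (−0.12, 37 mice), L1MB5 (−0.12, 35 mice), L1MA5 (−0.07, 32 mice) and L1MB8 (−0.05, 30 mice). The subfamilies higher in cortex were L1MA9 (log2 fold change 0.12, 33 of 46 mice), L1MA4A (0.11, 30 mice) and L1MA7 (0.09, 29 mice). L1MA9, for example, had a mean of 3161 ± 347 CPM in cortex and 2901 ± 266 CPM in hippocampus (SD, n = 46). No difference was called for L1MB3 (log2 fold change −0.03, SE 0.020), L1MA5A (−0.04, SE 0.042), L1MB4 (0.04, SE 0.028) and L1MA10 (0.03, SE 0.10).

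**Figure D2:**
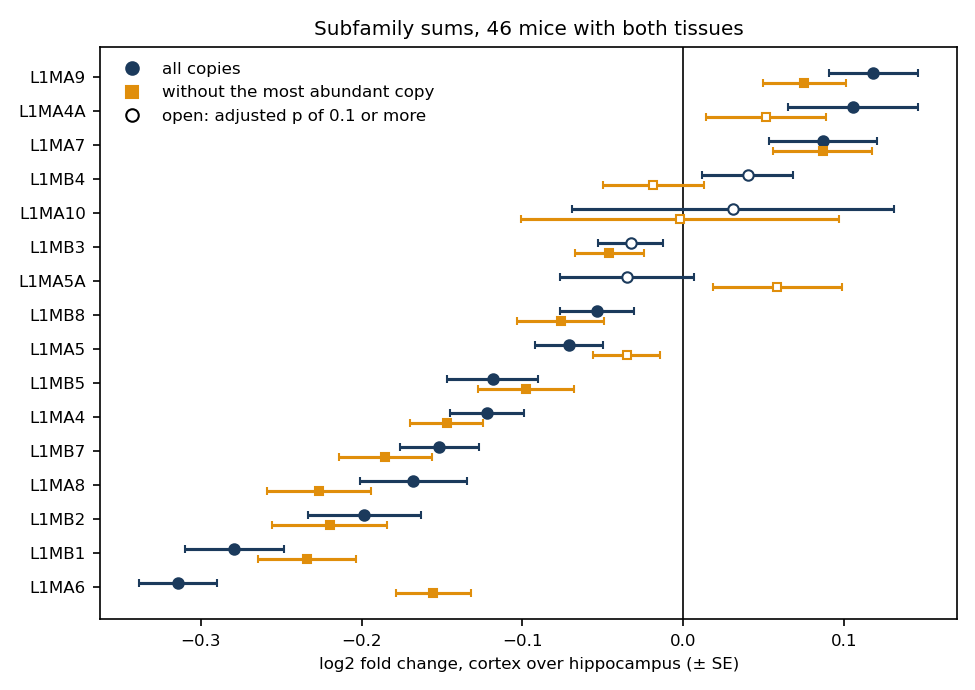
Log2 fold change of cortex over hippocampus for each subfamily sum (horizontal axis, bars ± SE) in 46 mice, with all copies (blue circles) and without the most abundant copy of each subfamily (orange squares); open symbols mark an adjusted p-value of 0.1 or more. L1MA6 lies lowest at −0.31 and moves to −0.16 without L1MA6_dup2741.

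Several of these differences rested in part on 1 copy. Without L1MA6_dup2741 the L1MA6 log2 fold change was −0.16 (SE 0.023). L1MA8 was at −0.10 (SE 0.030) without L1MA8_dup3544, a copy chosen after its high level in hippocampus was seen. L1MB1 without its most abundant copy, L1MB1_dup1141, was at −0.23. Other differences grew without the most abundant copy of the subfamily, namely L1MA8 (−0.23 in place of −0.17), L1MB2 (−0.22), L1MB7 (−0.19), L1MA4 (−0.15) and L1MB8 (−0.08). Those of L1MB5 (−0.10) and L1MA9 (0.08) shrank, and L1MA7 stayed at 0.09. Without the most abundant copy of each subfamily, the calls for L1MA5 (−0.04, adjusted p = 0.144) and L1MA4A (0.05, adjusted p = 0.228) were lost and L1MB3 was called (−0.05, adjusted p = 0.0610). Without the mice whose cortex library was dominated by 1 element 11 subfamilies were called, L1MA4A at 0.05 and L1MB8 at −0.02 being lost and L1MB4 gained at 0.07. Without mouse 46, the call for L1MB8 was lost (−0.05, adjusted p = 0.105). With only the mice whose labels begin with 20, 8 subfamilies were called, 1 higher in cortex and 7 higher in hippocampus, and the calls for L1MA4A, L1MA5, L1MA7 and L1MB8 were lost. L1MB4 was called at 0.05 without the libraries of outlying L1 total (adjusted p = 0.0665). The shares called over all L1 subfamilies with these settings are not given here.

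Other old L1 groups leaned the same way. Of 17 L1MC and L1MD subfamilies 10 were higher in hippocampus and 1 in cortex, and of 27 L1ME subfamilies 14 were higher in hippocampus and 7 in cortex. All 6 of the young L1Md subfamilies were higher in cortex, with a median log2 fold change of 0.15 against −0.06 over the L1MA and L1MB subfamilies. These shares were compared as a description, without a test of the groups against each other. Because all levels are relative to the L1 counts of a library, a higher share of one group lowers the others.

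At the level of single copies, 230 members (0.666%) had enough counts to be tested between the tissues, and 98 of them differed. Of these, 81 were higher in hippocampus and 17 in cortex. Over all 2495 L1 elements tested 43.8% were called, 24.8% higher in hippocampus and 19% higher in cortex, so that the total share of members called was near the background while the direction leaned further to hippocampus. The median log2 fold change of cortex over hippocampus was −0.24 over the tested members and −0.05 over all tested elements. Many copies had enough counts in a single tissue only, and such a copy enters the test because it is high there. Of the 230 copies, 27 passed the filter on low counts through hippocampus alone, with 19 called higher in hippocampus, and 6 through cortex alone, with 5 called higher in cortex. Another 76 passed only by the libraries of both tissues in sum, and 13 of these were called. Of the 121 copies that passed in each tissue alone, 61 were called, 57 higher in hippocampus and 4 in cortex. The direction depends on the scaling. With the factors from the subfamily sums in place of the factors from single elements, 144 members were called, 134 higher in hippocampus and 10 in cortex. These counts are given for their direction only, without the share of all elements called beside them. The median over all elements moved from −0.05 to −0.23 and that over the members from −0.24 to −0.43, and the share of all calls that were higher in cortex went from 43.4% to 24%. The single-copy log2 fold changes of the members lay a median of 0.15 above the log2 ratio of the mean CPM values printed beside them.

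**Figure D3:**
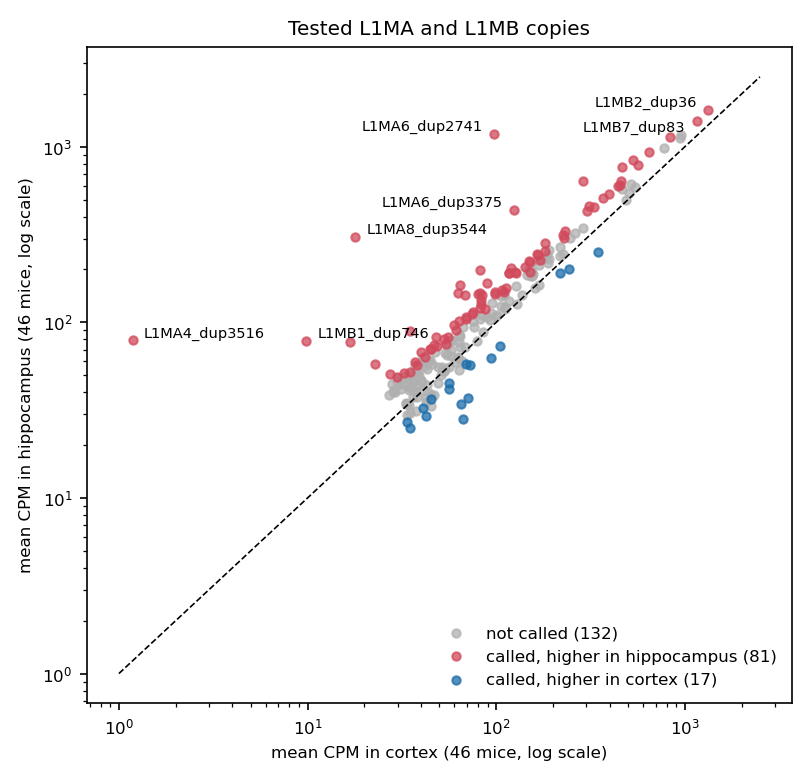
Mean CPM in cortex (horizontal axis) and hippocampus (vertical axis) of 46 mice, both on log scales, for the 230 tested L1MA and L1MB copies, with the dashed line at equal levels. The 81 copies called higher in hippocampus (red) include L1MA4_dup3516, L1MB1_dup746, L1MA8_dup3544 and L1MA6_dup2741 far above the line, and the 17 called higher in cortex (blue) lie close to it.

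The copies with the largest differences had few counts in cortex. L1MA4_dup3516 had no count in 39 of 46 cortex libraries and 19 counts over all of them, against 935 counts in hippocampus. In hippocampus it ranged from 0 to 211 CPM, with a median of 79.5, and was higher there in 45 of 46 mice (log2 fold change −5.64, SE 0.356). This copy passed the filter through hippocampus alone, so that its p-value is not given. Only mouse 46 had no count in hippocampus, and the other libraries were at 4.2 CPM or more.

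L1MA6_dup2741 was the most abundant of these copies. It ranged from 0 to 257 CPM in cortex, with a median of 94.2, and from 94.8 to 2394 CPM in hippocampus, with a median of 1110. The only hippocampus library within the cortex range was that of mouse 46, and the others were at 566 CPM or more. The level was 11.3-fold higher in hippocampus (log2 fold change −3.50, SE 0.210, adjusted p = 1.48e-18) and higher there in 45 of 46 mice. This copy held 14.3% of all L1MA6 counts in hippocampus. L1MA6_dup3375, of the same subfamily, had a median of 109 CPM in cortex and 390 CPM in hippocampus, with ranges of 17.1 to 351 and 20.7 to 935 (log2 fold change −1.66, SE 0.136, adjusted p = 2.73e-18). Its lowest hippocampus library was again that of mouse 46, and the others were at 226 CPM or more.

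L1MA8_dup3544 varied widely between mice. In cortex it was at 0 in 23 of 46 libraries, with at most 73 counts, and in hippocampus it ranged from 0 to 1098 CPM, with a median of 276 and 4 libraries at 0. It was higher in hippocampus in 40 of 46 mice (log2 fold change −4.26, SE 0.458), and it too passed the filter through hippocampus alone. The ranges overlapped widely, and 20 of 46 hippocampus libraries lay below the highest cortex library.

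L1MB1_dup746 had a median of 6.82 CPM in cortex and 75 CPM in hippocampus and was higher in hippocampus in 45 of 46 mice (log2 fold change −3.17, SE 0.314). The next copies were L1MB3_dup3179 (log2 fold change −2.24, 43 of 46 mice), L1MB1_dup1983 (−1.31, 43 mice), L1MA4_dup5177 (−1.29, 41 mice), L1MB7_dup37 (−1.28, 39 mice) and L1MB7_dup4494 (−1.12, 43 mice). For all of them the ranges of the tissues overlapped. L1MB1_dup746, L1MB3_dup3179 and L1MB1_dup1983 passed the filter through hippocampus alone. In mouse 46, L1MB3_dup3179 and L1MB1_dup1983 were not low in hippocampus, at 94.8 and 121 CPM.

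The differences in favour of cortex were smaller. L1MA8_dup1000 ranged from 0 to 218 CPM in cortex, with a median of 65.7, and from 0 to 127 CPM in hippocampus, with a median of 30.8. It was higher in cortex in 36 of 46 mice (log2 fold change 1.17, SE 0.228), and the ranges overlapped over most of their length. L1MA9_dup1828 (log2 fold change 1.08, 35 mice), L1MA6_dup5729 (1.02, 34 mice), L1MB7_dup4682 (0.90, 30 mice), L1MB3_dup3270 (0.83, 28 mice), L1MA6_dup247 (0.81, 34 mice), L1MB5_dup2766 (0.73, 35 mice), L1MB3_dup94 (0.62, 37 mice), L1MB4_dup2139 (0.57, 30 mice) and L1MB7_dup3566 (0.57, 29 mice) followed. L1MA8_dup1000, L1MA9_dup1828, L1MA6_dup247 and L1MB4_dup2139 passed the filter through cortex alone. The calls for L1MB4_dup2139 and L1MB7_dup3566 were lost without the block of mouse (adjusted p = 0.136 and 0.159), with only the mice whose labels begin with 20 (0.313 and 0.195), with at least 50 counts (0.273 and 0.340) and with the factors from the subfamily sums (0.190 and 0.206). That for L1MB3_dup3270 was lost with at least 50 counts (adjusted p = 0.189). The mean of L1MA6_dup5729 in cortex, 66.3 CPM, was raised by 1 library at 1139 CPM, and its median was 40.9.

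Among the abundant copies, the tissue differences were modest. L1MB1_dup1141 (log2 fold change −0.55), L1MB5_dup3439 (−0.42), L1MB2_dup37 (−0.35), L1MA5_dup779 (−0.29), L1MB7_dup83 (−0.16) and L1MB2_dup36 (−0.13) were higher in hippocampus. L1MB2_dup2749, L1MB2_dup35, L1MB7_dup82 and L1MB7_dup1393 were not called, with log2 fold changes of −0.13, −0.07, −0.16 and 0.06. The call for L1MB2_dup36 was lost without the libraries of outlying L1 total (−0.09, adjusted p = 0.192), without the mice whose cortex library was dominated by 1 element (−0.05, adjusted p = 0.396), without the block of mouse (−0.12, adjusted p = 0.175), with DESeq2 size factors (−0.07, adjusted p = 0.288), with only the mice whose labels begin with 20 (−0.09, adjusted p = 0.360) and with at least 50 counts (−0.21, adjusted p = 0.320). That for L1MB7_dup83 was lost with DESeq2 size factors (−0.10, adjusted p = 0.156), with only the mice whose labels begin with 20 (−0.16, adjusted p = 0.102) and with at least 50 counts (−0.24, adjusted p = 0.244). With the factors from the subfamily sums L1MB2_dup2749 (−0.30, adjusted p = 0.00289), L1MB2_dup35 (−0.25, adjusted p = 0.00815) and L1MB7_dup82 (−0.35, adjusted p = 0.00115) were called. L1MB2_dup2749 (−0.14, adjusted p = 0.0865) and L1MB7_dup82 (−0.17, adjusted p = 0.0782) were also called without mouse 46.

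The calls for single copies of a subfamily did not all go the same way. Of 25 tested L1MA6 copies 7 were higher in hippocampus and 3 in cortex, and of 40 tested L1MB7 copies 15 were higher in hippocampus and 2 in cortex. Of 31 tested L1MB8 copies 10 were higher in hippocampus and 1 in cortex, and of 17 tested L1MA8 copies 8 and 1. Of the 8 tested L1MB1 copies 6 were higher in hippocampus and 1 in cortex. Among the copies of these subfamilies called higher in cortex, only L1MB8_dup1166 passed the filter in each tissue alone. L1MA6_dup247 and L1MA8_dup1000 passed through cortex alone, and the others only by the libraries of both tissues in sum. Of the L1MB1 copies higher in hippocampus, L1MB1_dup746, L1MB1_dup1983 and L1MB1_dup301 passed through hippocampus alone. L1MA7 had 2 tested copies, neither of which was called, and no L1MA10 copy was tested.

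Without mouse 46, 100 of 230 members were called, 84 higher in hippocampus, against 43.9% over all elements. Without the mice whose cortex library was dominated by 1 element, 100 of 239 were called, 72 higher in hippocampus and 28 in cortex, against 45.8% over all elements. Where every element with at least 50 counts was tested, 364 of 7949 members were called and the direction turned, with 250 higher in cortex and 114 in hippocampus. Over all elements 6.21% were then called, and 3787 of 4792 calls were higher in cortex.

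The group comparisons asked whether trisomy or lamivudine changed the RNA of L1MA and L1MB subfamilies within a tissue. No subfamily passed the threshold in any of the 6 comparisons in cortex or hippocampus (edgeR quasi-likelihood test, 4 groups in 1 model). At an unadjusted p-value below 0.05, cortex gave 1 of the 16 subfamilies for TS-t vs. WT-t, 1 for the interaction of treatment and genotype and 0 for the other comparisons. Hippocampus gave 1 for TS-nt vs. WT-nt, 1 for TS-t against WT-nt, 1 for WT-t against WT-nt, 3 for TS-t against WT-t and 0 for the others. The share of all L1 subfamilies at this unadjusted cut-off is not given here, so that these counts are not read as a result. Over all L1 subfamilies cortex had 0.752% of 133 called for TS-nt vs. WT-nt and again for TS-t vs. WT-t, hippocampus had 1.52% of 132 for TS-t vs. WT-nt, and the other 9 comparisons had 0%. In hippocampus TS-nt vs. WT-nt, the DESeq2 Wald test called 2 of all 133 L1 subfamilies, of which 1 was a member.

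That subfamily was L1MA8, which came closest to the threshold. In hippocampus it ranged from 4239 to 5320 CPM in WT-nt, with a median of 4953, and from 4514 to 6595 CPM in TS-nt, with a median of 5655. WT-t had a median of 4948 CPM (4736 to 5495) and TS-t a median of 5412 CPM (3969 to 6171). The TS-nt mice lay higher on average, and all 4 groups overlapped. The log2 fold change of TS-nt vs. WT-nt was 0.21 (SE 0.063, adjusted p = 0.119). The adjusted p-value was 0.0894 with DESeq2, 0.0527 without the hippocampus library of outlying L1 total (TS-nt replicate 4), 0.0230 without TS-nt replicate 1, 0.0675 without WT-nt replicate 1 and 0.0901 without TS-t replicate 1. It stayed above 0.1 without any other single library and was highest, at 0.368, without TS-nt replicate 5 (log2 fold change 0.18). In cortex the means of the 4 groups lay between 4576 and 4717 CPM.

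A large part of the L1MA8 difference was carried by L1MA8_dup3544, the copy with few counts in cortex. In hippocampus it ranged from 0 to 308 CPM in WT-nt (median 185), from 0 to 680 in WT-t (median 276), from 81.3 to 1098 in TS-nt (median 589) and from 0 to 786 in TS-t (median 199). TS-nt was the only group without a library at 0, and it overlapped with all others. As a single copy it was not called in TS-nt vs. WT-nt (log2 fold change 1.85, SE 0.820, adjusted p = 0.998). Without this copy, the L1MA8 log2 fold change fell from 0.21 to 0.10 (SE 0.053, adjusted p = 0.600), an alternative chosen after seeing the data.

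In the other subfamilies the differences between groups were of the size of the spread between libraries. Leaving out L1MA8 and L1MA10, log2 fold changes in the 5 comparisons of groups spanned −0.14 to 0.16 in cortex and −0.12 to 0.12 in hippocampus. L1MA10 had few counts, and its log2 fold change in cortex was −0.32 in WT-t vs. WT-nt (SE 0.199) and 0.41 in TS-t vs. WT-t (SE 0.179). In cortex, 14 of the 16 subfamilies had a positive log2 fold change for TS-nt vs. WT-nt (median 0.06 against 0.0016 over all L1 subfamilies). The WT-nt cortex library of mouse 24 was the lowest of its group in 6 L1MB subfamilies, and without the libraries of outlying L1 total the median was 0.01.

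**Figure D4:**
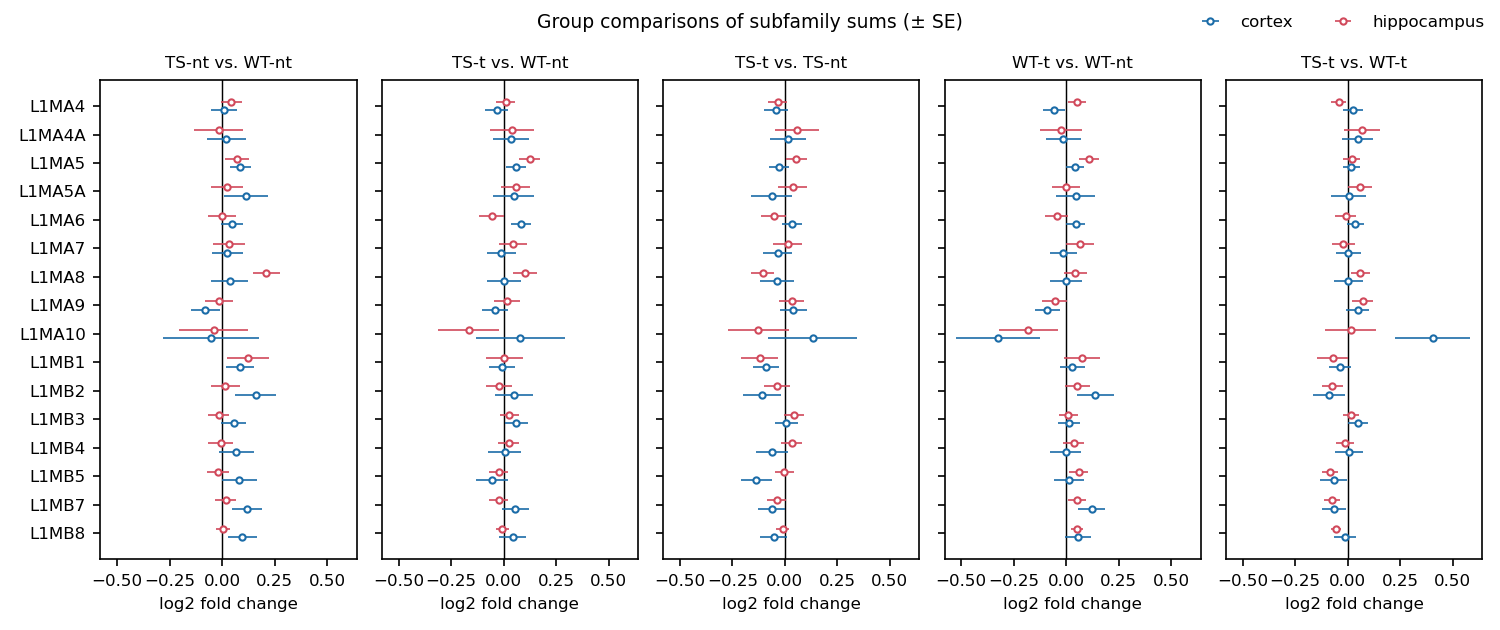
Log2 fold change of each L1MA and L1MB subfamily sum (horizontal axis, bars ± SE) in the 5 comparisons of groups, in cortex (blue) and hippocampus (red). All symbols are open because no adjusted p-value was below 0.1; L1MA8 in hippocampus TS-nt vs. WT-nt at 0.21 came closest, and L1MA10 has the widest bars.

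Single copies gave no call either. The tests covered 420 copies in cortex and 377 in hippocampus, of which 320 were tested in both, and these held 41.4% and 50.8% of the member counts. The background was 0% of 5416 elements in all 6 comparisons in cortex, and in hippocampus 0.0708% of 4238 for TS-nt vs. WT-nt, 0.0472% for TS-t vs. WT-nt and 0% for the other 4. At an unadjusted p-value below 0.05, cortex gave 10 copies for TS-nt vs. WT-nt, 6 for TS-t against WT-nt, 3 for TS-t against TS-nt, 0 for WT-t against WT-nt, 3 for TS-t against WT-t and 3 for the interaction. The 10 copies were 2.38% of those tested, and over all elements 1.51% had such a p-value. Hippocampus gave 18, 19, 12, 16, 13 and 10 in the same order, and the 18 copies of TS-nt vs. WT-nt were 4.77%, against 4.03% over all elements. For the other comparisons the share over all elements at this cut-off is not given here. DESeq2 called no copy in cortex and 1 of 377 in hippocampus, L1MB3_dup94 in TS-t vs. WT-nt. Over all elements it called 18 of 4238 in that comparison.

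L1MB3_dup94 was named in both tissues for its small p-value in TS-t vs. WT-nt. In cortex it ranged from 115 to 258 CPM in WT-nt (median 195), from 91.0 to 825 in WT-t (median 269), from 91.2 to 521 in TS-nt (median 356) and from 114 to 1286 in TS-t (median 339). In hippocampus the medians were 130, 234, 243 and 251 CPM in the same order, with a highest value of 386 in WT-nt and 897 in TS-t. WT-nt had the lowest median in both tissues, and all groups overlapped.

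The log2 fold change of L1MB3_dup94 in TS-t vs. WT-nt was 1.13 in cortex (SE 0.300, adjusted p = 0.999) and 1.03 in hippocampus (SE 0.338, adjusted p = 0.686), and with DESeq2 the adjusted p-value in hippocampus was 0.0994. The exact permutation test of the mean CPM gave two-sided p-values of 0.0147 in cortex and 0.0892 in hippocampus, not adjusted for its selection. For cortex TS-t vs. WT-t, where this copy was also named, a permutation test with 100000 draws gave 0.221. The log2 fold changes in cortex and hippocampus were 0.63 and 0.64 for TS-nt vs. WT-nt, and 0.44 and 0.68 for WT-t vs. WT-nt. All comparisons with WT-nt share the WT-nt mice.

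L1MA4_dup5177 was the copy with the smallest p-value in hippocampus TS-nt vs. WT-nt. It ranged from 55.8 to 223 CPM in WT-nt (median 90.9), from 34.8 to 226 in WT-t (median 158), from 120 to 349 in TS-nt (median 225) and from 94.2 to 262 in TS-t (median 174). TS-nt lay highest and overlapped with the other groups (log2 fold change 0.90, SE 0.277, adjusted p = 0.704). In cortex its medians were 46.7, 46.5, 98.1 and 89.3 CPM in the same order, so that both TS groups lay above both WT groups there, again with overlap.

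L1MB7_dup6347 went the other way. In hippocampus it ranged from 254 to 409 CPM in WT-nt (median 322) and from 94.2 to 353 in TS-t (median 179), with medians of 251 in WT-t and 253 in TS-nt. WT-nt lay highest, with overlap, and the log2 fold change of TS-t vs. WT-nt was −0.62 (SE 0.188, adjusted p = 0.403). In cortex its WT-nt median was 211 CPM and its TS-t median 132 CPM.

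The remaining copies named for the smallest p-values were not called and had wide errors. In hippocampus these were L1MB8_dup1668 in TS-nt vs. WT-nt (log2 fold change 1.67, SE 0.615), L1MB8_dup691 and L1MB7_dup37 for TS-t vs. TS-nt (1.11, SE 0.360, and −1.05, SE 0.367), L1MA4_dup2187 and L1MA7_dup1782 for WT-t vs. WT-nt (1.85, SE 0.596, and 0.61, SE 0.201), and L1MB7_dup6716 and L1MB5_dup2766 in TS-t vs. WT-t (−1.15, SE 0.467, and 0.73, SE 0.298). L1MB2_dup1064 and L1MA6_dup2105 were those of the interaction of treatment and genotype (−1.61, SE 0.598, and −2.57, SE 1.01).

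In cortex they were L1MA6_dup1874 and L1MB8_dup3802 in TS-nt vs. WT-nt (log2 fold change 1.69, SE 0.714, and 1.01, SE 0.429), L1MA4_dup4611 and L1MA7_dup1680 in TS-t vs. TS-nt (−1.15, SE 0.465, and −0.63, SE 0.282), and L1MA6_dup2741 in TS-t vs. WT-nt (1.09, SE 0.422). L1MB3_dup94 and L1MA5_dup3372 were named in TS-t vs. WT-t (0.69, SE 0.245, and 1.10, SE 0.487), L1MA4_dup2187 and L1MB8_dup4011 in WT-t vs. WT-nt (1.24, SE 0.645, and 1.38, SE 0.709), and L1MA5A_dup350 and L1MA6_dup6003 in the interaction (−1.23, SE 0.532, and 1.56, SE 0.720). The copies differed from comparison to comparison, except for L1MB3_dup94 and L1MA4_dup2187.

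Whether the tissue difference itself changed with trisomy or lamivudine was tested in the subfamily sums of the 46 mice. No member subfamily was called in the 3 terms (TS-nt minus WT-nt, TS-t minus TS-nt, WT-t minus WT-nt), with 0 at an unadjusted p-value below 0.05 in each, and 0% of all 132 subfamilies were called. L1MA8 was the member with the smallest p-value in the first term (log2 −0.19, SE 0.113, adjusted p = 0.679).

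A few copies were at or near 0 in both tissues of some mice and abundant in both tissues of others. Of the 230 copies tested between the tissues, 201 were never at 1 count or less in both tissues of the same mouse, and 21 were so in 1 mouse. L1MA4_dup6508 was at 1 count or less in both tissues in 10 of 46 mice, in a single tissue in 6 and in neither tissue in 30 mice. In those 30 mice it had 11 to 127 counts in cortex, with a median of 131 CPM, and 6 to 87 counts in hippocampus, with a median of 131 CPM. The 10 mice were 1 of 8 WT-nt, 3 of 17 WT-t, 3 of 8 TS-nt and 3 of 13 TS-t, so that every group held mice of both sets. The sets follow from the cut-off at 1 count. Mice such as mouse 35, at 6.98 CPM in cortex and 0 in hippocampus, lay between them.

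L1MB8_dup4011 was at 1 count or less in both tissues in 7 mice, in a single tissue in 3 and in neither in 36. In those 36 mice its medians were 67.6 CPM in cortex and 53.3 CPM in hippocampus. The 7 mice were 1 of 8 WT-nt, 3 of 17 WT-t, 1 of 8 TS-nt and 2 of 13 TS-t. L1MA8_dup3544, in contrast, was low in both tissues in 3 mice, in neither in 18 and in a single tissue in 25. These 3 copies were chosen after their values were seen, and the difference between mice was not tested.

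**Figure D5:**
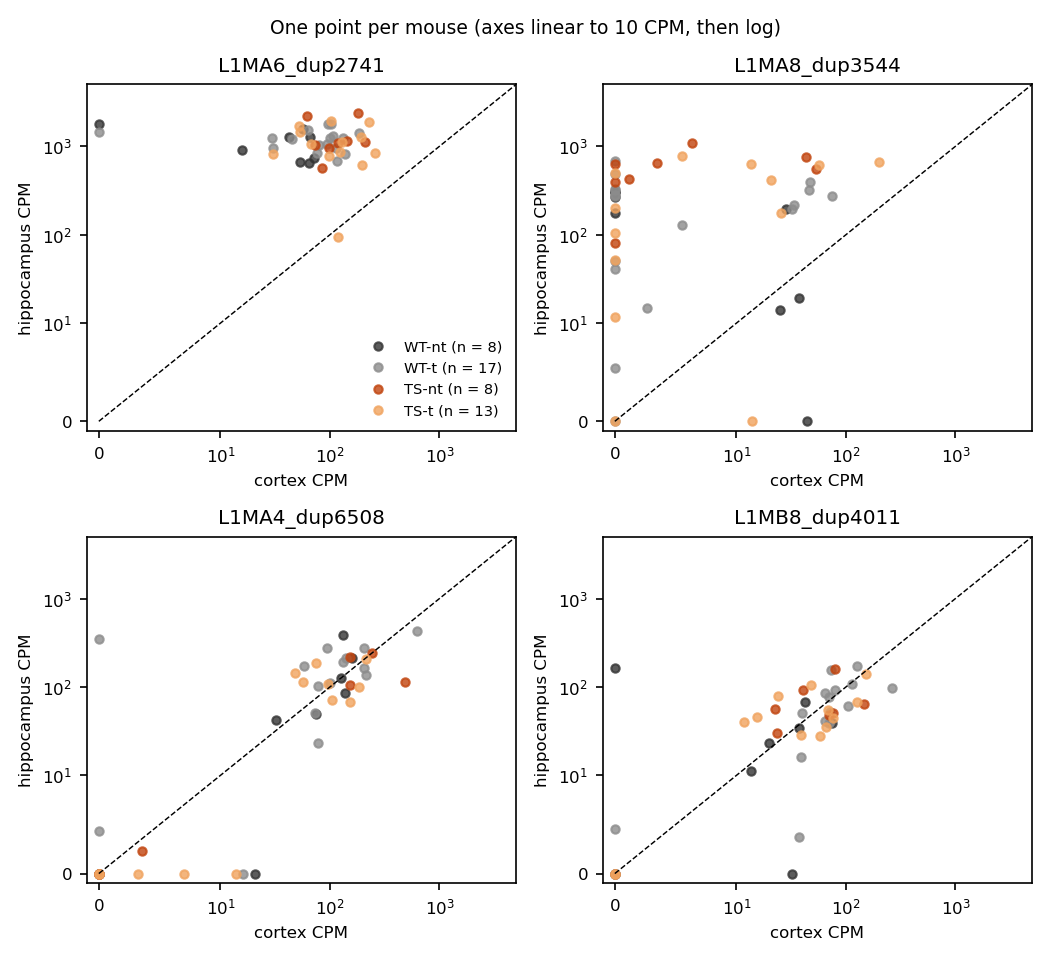
CPM in cortex (horizontal axis) and hippocampus (vertical axis) of 4 copies, one point per mouse, coloured by group; axes are linear up to 10 CPM and logarithmic above, and the dashed line marks equal levels. L1MA6_dup2741 lies above the line in all mice but mouse 46, and L1MA8_dup3544 spreads along the hippocampus axis. L1MA4_dup6508 and L1MB8_dup4011 were at 1 count or less in both tissues in 10 and 7 mice, and in a single tissue in 6 and 3.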

How the data were processed

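The deposited table held raw, not normalized read counts per L1 element, all whole numbers. Per the labels and the study's methods, the authors sequenced ribosomal RNA-depleted, stranded libraries (150-base paired reads), trimmed with Trimmomatic 0.38, aligned to GRCm38/mm10 with HISAT2 2.1.0 (up to 5 alignments per read) and counted with Telescope, whose version is not given in the sources used here. Telescope assigns a read with several alignments to its most probable copy, so counts of near-identical copies are uncertain.

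Here, all elements, or sums per subfamily, were filtered with filterByExpr (minimum 10 counts, 15 in total), scaled with TMM and tested with edgeR 4.0.16 (quasi-likelihood, limma 3.58.1, R 4.3.3), with Benjamini-Hochberg adjustment over the whole table and a threshold of 0.1. SE is the absolute log2 fold change over the square root of F. The tissue fit had mouse as a block, since the titles tie both libraries to 1 animal. DESeq2 1.42.0 was an alternative, as were other filters, scalings and libraries. Permutation tests used numpy 2.4.6. The model was also run on simulated counts. For single copies these had less spread between libraries than the real data, so they do not show how it performs on sparse copies. No 2 libraries were identical. P-values measure the spread between these libraries.

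Named were all subfamilies, the 10 most abundant copies per tissue, the 10 called copies with the largest tissue difference in each direction, and the 2 smallest p-values per group comparison. The members, lists and rules were chosen with earlier results of these data known.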

Additional observations from a re-analysis of the deposited data

Results flagged for a closer look

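Among 114 sets of 8 or 9 libraries of 1 group, 22 had a library whose gap to the nearest other was large against the range of its group. For independent sets chance gives about 1 in 20. These sets share the same libraries, and the cortex libraries of mouse 24 and mouse 27 recur among the 22, so that the count is not read against that rate. The cortex library of mouse 24 (WT-nt) was the lowest of its group in the share of L1 counts held by L1MA and L1MB (4.46%, others 8.04% to 8.88%). It was also lowest in L1MB2 (3514 CPM), L1MB3 (4871 CPM), L1MB4 (1916 CPM), L1MB5 (3298 CPM), L1MB7 (8609 CPM) and L1MB8 (5592 CPM), and highest in L1MA7 (3428 CPM). Its L1 total was 1165192, the largest of all libraries.

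The cortex library of mouse 27 (TS-nt) was the highest of its group in the share (9.90%, others 8.25% to 8.74%), in L1MA7 (3826 CPM) and in L1MA9 (4052 CPM), and the lowest in L1MB2 (5702 CPM) and in L1MA5A_dup350 (43.8 CPM). The cortex library of mouse 23 (TS-nt) was lowest in L1MA5 (5012 CPM) and highest in L1MA6_dup1874 (109 CPM) and L1MB8_dup3802 (279 CPM), which are the copies with the smallest p-values in TS-nt vs. WT-nt.

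Single libraries stood out in L1MB1 in hippocampus WT-nt (mouse 43, 4453 CPM), L1MA6_dup2741 in cortex WT-nt (mouse 28, 171 CPM), L1MB3_dup94 and L1MB5_dup2766 in hippocampus WT-nt (mouse 24, 386 and 209 CPM), L1MB7_dup37 in hippocampus TS-nt (mouse 25, 201.0 CPM) and L1MB8_dup1668 in hippocampus TS-nt (mouse 40, 191 CPM).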

How the results depend on the processing

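Between the tissues, 8 to 13 of the 16 subfamilies were called under the settings tried. Without the replicate block of mouse 12 subfamilies and 78 copies were called. Shares over all subfamilies or elements are not given beside these counts, which describe only how the calls depend on the setting. The copies called went from 98 to 59 with only the mice whose labels begin with 20 (29.8% called over all elements) and to 364 where elements with at least 50 counts were tested. Single values changed sign without the most abundant copy of a subfamily (L1MA5A 0.0585, L1MA10 −0.0020, L1MB4 −0.0185), without the mice whose cortex library was dominated by 1 element (L1MA5A 0.0311, L1MA5A_dup350 0.0707), with at least 50 counts (L1MB7_dup1393 −0.0189) and with scaling from subfamily sums (L1MB7_dup1393 −0.12), and none of these was called before.

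In the group comparisons, leaving out each library in turn gave 0 or 1 subfamily in hippocampus TS-nt vs. WT-nt and 0 in all others. In that comparison 1 member subfamily, L1MA8, was called with DESeq2, against 2 of all 133 L1 subfamilies. L1MA8 was also called without the libraries of outlying L1 total, against 3 of all 132. With treated mice limited to labels beginning with 20, 1 of 751 copies tested, L1MB3_dup794, was called in cortex TS-nt vs. WT-nt. It was the only call among all 9188 elements tested. The largest change came from the filter. With every element of at least 10 counts, edgeR called, of 17522 members in cortex and 13474 in hippocampus, 2710 and 1978 for TS-nt vs. WT-nt, 3247 and 1918 for TS-t against WT-nt, 1277 and 1884 for TS-t against TS-nt, 2967 and 1743 for WT-t against WT-nt, 2024 and 1415 for TS-t against WT-t, and 1576 and 1633 for the interaction. These were 7.29% to 18.5% of the members in cortex and 10.5% to 14.7% in hippocampus, against 6.86% to 25.0% and 10.6% to 14.5% over all elements, while DESeq2 with the same filter called 0 of the 16998 and 13474 members it gave an adjusted p, and the cause was not tested. DESeq2 on the elements of the main filter called 1 of 377 members in hippocampus TS-t vs. WT-nt, against 18 of all 4238 elements.

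Without the most abundant copy of each subfamily, the share of L1 counts was 7.86% in cortex TS-nt, and in hippocampus 7.92% over all libraries and 7.80% in WT-nt, 7.94% in both WT-t and TS-nt and 7.96% in TS-t. With the most abundant L1 element left out of the total, it was 9.38% over all hippocampus libraries, 9.16% in WT-nt, 9.46% in WT-t and 9.42% in TS-nt. The scaling from subfamily sums, DESeq2 with at least 10 counts and the fits without the dominated libraries, without mouse 46 or without L1MA8_dup3544 were chosen after seeing the data. The depth per copy limits all of this, since 420 of 34525 copies could be tested in cortex.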
